A study of Homo sapiens with 12 samples.

Results

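SR proteins and their partners in nuclear speckles are described here through the exon and intron counts of their own genes, in ovarian cancer cells given cisplatin or its solvent. The 34 genes were chosen by symbol: 12 SR proteins, 2 TRA2 proteins, 3 speckle scaffold proteins, 8 kinases, 6 SR-related or speckle-associated proteins and 3 LUC7-like proteins. All 34 matched 1 Ensembl identifier each among the 17508 genes counted. TYK-nu cells, which the paper calls an ovarian cancer line, were grown with 15 µM cisplatin or with DMSO for 24 or 72 h. There were 3 replicates per group, giving 4 groups and 12 libraries. Cisplatin is a platinum drug that crosslinks DNA. The RNA was poly(A)-selected, made into strand-specific libraries and read as pairs on 1 lane, and the study used it to ask how completely transcripts were spliced after treatment. Library totals of exon plus intron counts were 28106882, 30792139 and 19940352 in DMSO and 24542748, 36911333 and 18526830 in cisplatin at 24 h, and 26921033, 28578024 and 44713703 in DMSO and 49205311, 68753262 and 31908403 in cisplatin at 72 h. The labels and methods speak of triplicates of grown cells, and the paper says of its experiments in general that they were done independently at least 3 times unless a legend says otherwise. How separate the 3 cultures of a group were is not detailed, so p-values measure the spread between these samples, which may be technical. In bulk RNA, a lower level in every cell and a smaller share of cells with the transcript cannot be told apart.

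SR proteins bind exonic sequences of a pre-mRNA through RNA recognition motifs and recruit the splicing machinery through stretches of alternating arginine and serine. CLK and SRPK kinases phosphorylate these stretches, which releases SR proteins from nuclear speckles, the nuclear bodies where splicing factors gather around the proteins SON and SRRM2. Many SR protein genes limit their own expression by including a cassette exon with an early stop codon or by keeping an intron, and CLK genes are known for transcripts with introns that stay in the nucleus.

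Markers of a serous ovarian line and of other cells were read beside the name of the line. KRT18 and KRT8, keratins of simple epithelia, had medians over the 12 libraries of 147 and 21.0 exon CPM (counts scaled to a library total of 1000000), and VIM, the intermediate filament of mesenchymal cells, had 7214. WT1, a serous lineage factor, had 2.28, EPCAM 0.773, KRT7 0.0339 and PAX8 0.0174 CPM, while SOX17 and CDH1 had 0 counts in every library. PAX8 had at most 2 and KRT7 at most 8 exon counts in any library. These markers alone therefore do not establish a serous epithelial line. MUC16 and MSLN were not found by symbol. Of the genes of other cells, PTPRC had 0 counts in every library and ALB at most 3, but PECAM1, an endothelial adhesion molecule, had a median of 1834 CPM, with 34067 to 90727 exon counts in each library. Why PECAM1 was that high was not tested.

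In the GENCODE annotation of GRCh38, the genes are rich in the transcripts for which the family is known. Of the 29 members tested for the exon/intron ratio, 26 (89.7%) have an annotated retained-intron transcript, against 66.0% of all genes tested. A transcript marked for nonsense-mediated decay is annotated for 25 (86.2%) of them, against 52.0%. An inner exon of such a transcript can lie inside an intron of the main transcript and share no base with exons of protein-coding transcripts. At least 1 such exon is annotated for 16 (55.2%) of the members, against 24.6%. Transcripts of other types may hold these exons too. The members also have more annotated transcripts, with a median of 14 against 9. Sequence at the edges of 4 such cassette exons is given because a fragment from one of these exons falls inside an intron of the main transcript. They are the longest such exon of each of 4 genes. The one of SRSF3 has 456 bases (chr6:36599821-36600276 on the + strand of GRCh38), that of SRSF7 449 bases (chr2:38748898-38749346 on the - strand), that of SRSF6 268 bases (chr20:43459153-43459420 on the + strand) and that of TRA2B 276 bases (chr3:185931577-185931852 on the - strand). The 30-base windows run 5′ to 3′ on the strand of the gene, with exon bases in capitals and intron bases in lower case, first across the acceptor and then across the donor.
SRSF3 acceptor, chr6:36599806-36599835: tgaaccccgttacagAGTCACCATCATGTC
SRSF3 donor, chr6:36600262-36600291: TGAAACCCAAAACTAgtaagtttttcctgc
SRSF7 acceptor, chr2:38749332-38749361: gtcaaaacctttcagGTTTCTTCGTTTGAG
SRSF7 donor, chr2:38748883-38748912: CTGCAAACTTGCAAGgtttattttaaatac
SRSF6 acceptor, chr20:43459138-43459167: gtttcaatttgaaagTGACCAATGGGGCTG
SRSF6 donor, chr20:43459406-43459435: ACCTCACACTGTGATgtaagtacttagtgt
TRA2B acceptor, chr3:185931838-185931867: tctttttctattaagGTTAATGTTGAAGAA
TRA2B donor, chr3:185931562-185931591: AAAGCACTACGCTAAgtaattactagtctg
Each of these 4 exons has AG before it and GT after it. A second cassette exon of SRSF3, of 98 bases (chr6:36598429-36598526 on the + strand), has AG before it and no GT after it. The regions that were counted as exon and intron for each gene are not given in the sources used here, so whether fragments from these exons entered the exon counts, the intron counts or neither was not tested.

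Of the 34 genes, 30 were counted on exons and on introns. SRSF2, TRA2B and SON had no exon entry, and SRSF8, whose main transcript has no intron, had no intron entry. SRSF12, a relative of SRSF10, had 0 exon and 0 intron counts in all 12 libraries. The exon/intron ratio could therefore be tested for 29 members, exon counts for 30 and intron counts for 32. SRSF2, also called SC35, the name under which the study stained speckles, had intron counts of 708, 732 and 547 in DMSO and 648, 935 and 538 in cisplatin at 24 h, and 597, 698 and 1047 in DMSO and 1185, 1526 and 723 in cisplatin at 72 h. As intron CPM (scaled by TMM to a total of 1000000 intron counts), these were 375, 373 and 388 in DMSO and 371, 338 and 445 in cisplatin at 24 h, and 351, 385 and 359 in DMSO and 355, 328 and 324 in cisplatin at 72 h. The groups overlapped in each comparison made, of treatments at 1 time and of times within 1 treatment. SRSF8, a copy of SRSF2 made by retrotransposition, had exon counts of 1302, 1521 and 1049 in DMSO and 1216, 1815 and 970 in cisplatin at 24 h, and 1411, 1543 and 2185 in DMSO and 2558, 3503 and 1545 in cisplatin at 72 h. Relative to library size its groups overlapped in the same comparisons. Exons of 18 of the 34 members share bases with exons of another annotated gene. The other gene is on the opposite strand for 14, such as SRSF2 with MFSD11, SON with DONSON and SRRM2 with ELOB, and on the same strand for 10, such as LUC7L2 with FMC1-LUC7L2. The strand option of the counting, which bears on the 14, is not given in the sources used here, and how fragments from shared bases were counted was not tested.

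The controls already held members with far more intron than exon counts. The intronic share, intron counts as a percentage of exon plus intron counts, was over 50% in DMSO at 24 h for 4 of 29 members, against 6.56% of the 9380 genes tested. SRSF1, the founding SR protein, had exon counts of 443, 408 and 284 and intron counts of 2723, 3098 and 2140 in DMSO at 24 h, a share of 87.6 ± 1.34% (SD, n = 3). SRSF10, which represses splicing once dephosphorylated, had 691, 791 and 475 exon and 2511, 2598 and 1889 intron counts, a share of 78.3 ± 1.63% (SD, n = 3). Both lay above 98% of all genes tested. CLK4 reached 74.8 ± 4.93% (SD, n = 3) on few fragments, with 20, 13 and 13 exon and 45, 42 and 48 intron counts. LUC7L2, a protein of the U1 snRNP, which recognises 5′ splice sites, had 1368, 1473 and 987 exon and 3218, 3429 and 2384 intron counts, a share of 70.3 ± 0.397% (SD, n = 3). At the other end, PNN had 5418, 5847 and 4451 exon and 12, 13 and 17 intron counts, a share of 0.274 ± 0.0918% (SD, n = 3), and BCLAF1 and PRPF4B were also under 1%. The same genes were high and low in DMSO at 72 h, where SRSF1 stood at 87.1 ± 2.20%, SRSF10 at 81.1 ± 0.691%, LUC7L2 at 72.0 ± 0.397% and PNN at 0.218 ± 0.0864% (SD, n = 3 each).

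Annotated lengths put the shares of SRSF1 and SRSF10 in context. SRSF1 (chr17:58000919-58007346, - strand, ENSG00000136450) has only 647 bases that are intron in every annotated transcript that covers them, beside 2441 bases that are exon in one transcript and intron in another. Spread over those 647 bases, its intron counts would be 63.4 ± 7.32 times as dense as its exon counts over all annotated exons (SD, n = 3, DMSO at 24 h). For SRSF10 (chr1:23964347-23980927, - strand, ENSG00000188529) the same quotient was 9.12 ± 0.870 and for CLK4 1.21 ± 0.291. LUC7L2 had a quotient of 0.195 ± 0.00371, since its 76783 intron bases are many. Exons and introns were counted under different rules of HTSeq, in which a fragment had to lie wholly within exons to count for them but only to touch an intron to count for it, so these quotients set the genes side by side and are no measure of retention. How many of the intron counts came from bases that some transcripts use as exon was not tested.

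**Figure D1:**
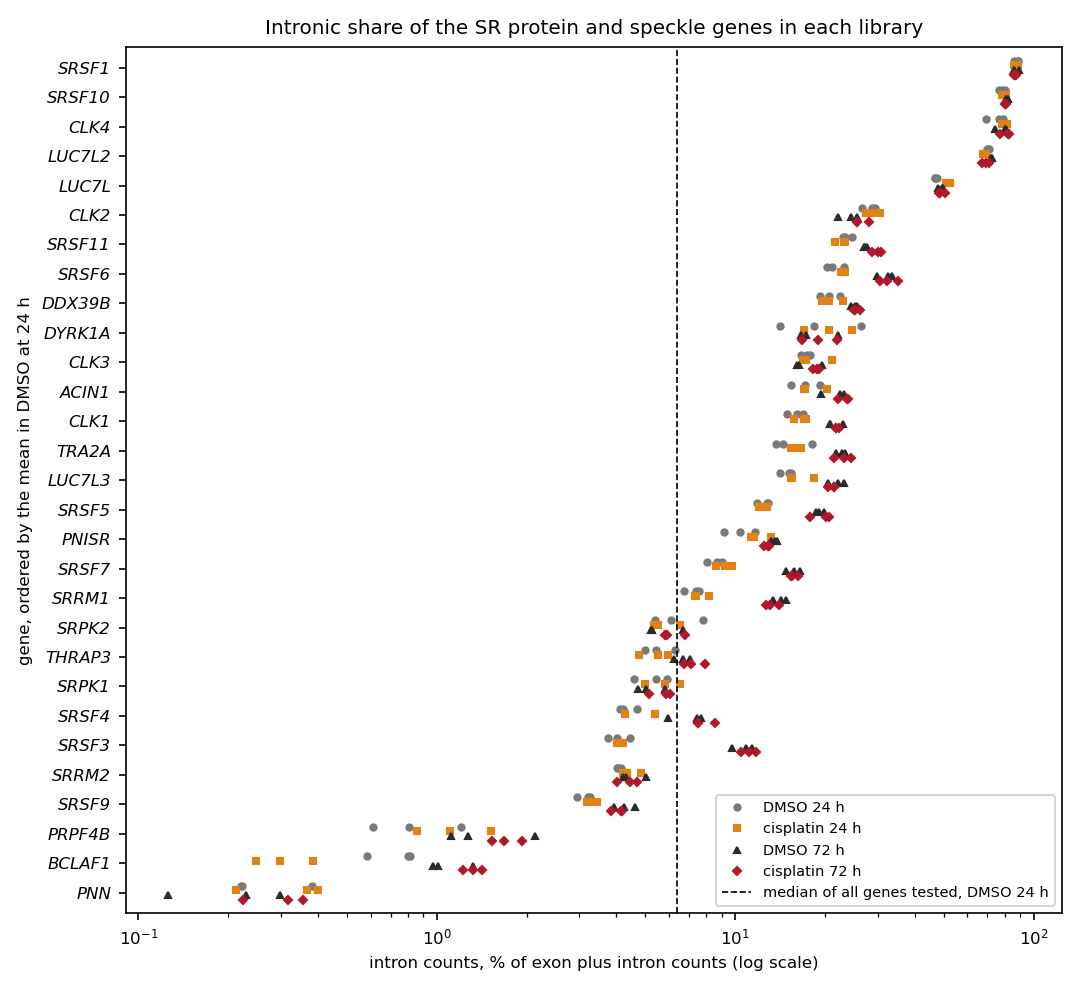
Intron counts as a percentage of exon plus intron counts (log axis) for the 29 members with counts of both kinds, ordered by the mean in DMSO at 24 h. Each marker is 1 library, with a symbol and colour per group, and the dashed line is the median of all genes tested in DMSO at 24 h (6.38%). SRSF1, SRSF10, CLK4 and LUC7L2 lie above 50% in every library.

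Over the 29 members, the median intronic share was 14.1% ± 0.381 in DMSO and 15.7% ± 0.451 in cisplatin at 24 h, and 18.2% ± 1.32 in DMSO and 18.7% ± 0.505 in cisplatin at 72 h (SD, n = 3 libraries each). All genes tested had medians of 6.38% ± 0.343, 6.68% ± 0.482, 5.96% ± 0.0933 and 6.37% ± 0.154 in the same order. The members' median was higher at 72 h than at 24 h in both treatments with no overlap of libraries, while the median of all genes was not. Between cisplatin and DMSO, the members' libraries overlapped at 72 h, and those at 24 h lay higher with the drug without overlap. Summed over genes in place of the median, the members' share was 15.3% ± 0.458 in DMSO and 15.5% ± 0.267 in cisplatin at 24 h, where libraries overlapped, and 19.5% ± 0.290 and 19.5% ± 0.306 at 72 h. The summed share of all genes was 6.16% ± 0.203 and 6.42% ± 0.382 at 24 h and 6.50% ± 0.0393 and 6.72% ± 0.148 at 72 h. It too was higher at 72 h without overlap in DMSO, while its libraries overlapped between the times in cisplatin.

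Cisplatin against DMSO asked whether the drug changed the splicing state or the amount of these transcripts. With edgeR's quasi-likelihood test and Benjamini-Hochberg adjustment over all genes, at a threshold of 0.05 for the adjusted p, no member passed at either time. For the ratio, 0 of 29 members passed at 24 h beside 0% of all genes, and 0 at 72 h beside 0.0213%. For exon counts it was 0 of 30 members beside 0% and 0.0287%, and for intron counts 0 of 32 beside 0.0208% and 0.0416%. At an unadjusted p under 0.05, edgeR gave 1 and 0 of 29 members for the ratio at 24 and 72 h, beside 6.34% and 6.24% of all genes. For exon counts it gave 0 and 5 of 30, beside 2.49% and 12.6%, and for intron counts 1 and 5 of 32, beside 5.00% and 6.46%. DESeq2 called 0 of 29 members for the ratio at 24 and 72 h, beside 0% and 0.0213% of all genes, and 0 of 32 for intron counts, beside 0% and 0.0312%. For exon counts DESeq2 called 0 of 30 at 24 h, beside 0%. At 72 h its filter left an adjusted p for 18 members and 3762 genes, of which it called 1 member (SRRM2), beside 2.26% of these genes. The median log2 change of the ratio was -0.09 at 24 h and -0.03 at 72 h for members, against -0.09 and -0.08 for all genes. The difference between the cisplatin effects at the 2 times, the interaction term of the same edgeR fits, passed for no member, with 0 of 29, 30 and 32 members for the ratio, exon counts and intron counts beside 0%, 0% and 0.0416% of all genes. At an unadjusted p under 0.05 the interaction had 1, 3 and 4 of these members, beside 4.55%, 9.43% and 5.71% of all genes.

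BCLAF1, a transcription and splicing cofactor with arginine-serine stretches, had the largest ratio change in edgeR with cisplatin at 24 h among the members. Its intron counts were 29, 24 and 23 in DMSO and 9, 14 and 9 in cisplatin at 24 h, and 19, 27 and 35 in DMSO and 50, 67 and 33 in cisplatin at 72 h. As a share of intron counts, all 3 cisplatin libraries at 24 h were below every other library, with exon/intron ratios of 402, 334 and 259.8 against 122, 170.0 and 124 in DMSO. The log2 change of the ratio was 1.26 (SE 0.29, edgeR adjusted p = 0.555), which does not pass, and it rests on 9 to 29 intron counts per library. CLK4 came next at 24 h, with ratios of 0.237, 0.227 and 0.281 in cisplatin and 0.444, 0.310 and 0.271 in DMSO and a change of -0.49 (SE 0.40, edgeR adjusted p = 0.868). At 72 h the largest change was that of PNN, a protein tied to the exon junction complex, whose ratios were 447, 314 and 280.4 in cisplatin and 793, 335 and 435 in DMSO, on 4 to 25 intron counts. Its log2 change was -0.41 (SE 0.37, edgeR adjusted p = 0.864). BCLAF1 followed with -0.28 (SE 0.22, edgeR adjusted p = 0.838). The groups of CLK4 and PNN overlapped. SRRM2, the scaffold of speckles, had the largest change of exon counts at 72 h among the members, with 349, 327 and 364 exon CPM in cisplatin and 284, 287 and 314 in DMSO. The groups did not overlap, and the change was 0.23 (SE 0.064, edgeR adjusted p = 0.164). SRRM2 was the 1 member called by DESeq2, with a change of 0.23 (SE 0.069, DESeq2 adjusted p = 0.0424), and edgeR called it with a minimal filter on low counts (0.23, SE 0.054, edgeR adjusted p = 0.00671). Over the other alternatives it did not pass. The share of all genes called with the minimal filter is not given here.

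The logistic regression used by the study takes each fragment as an independent draw and does not include the spread between replicates. It called 2 of 29 members with a higher ratio in cisplatin at 24 h beside 0.765% of all genes, and 7 with a lower one beside 10.7%. BCLAF1 and LUC7L2 were higher, and ACIN1, DDX39B, LUC7L, LUC7L3, PNISR, SRRM2 and SRSF4 were lower. At 72 h it called LUC7L2 as higher (1 of 29, beside 1.73%) and ACIN1 and SRSF11 as lower (2 of 29, beside 9.7%). The share of members with a lower ratio at 24 h, 7 of 29, was above that of all genes, and at 72 h, 2 of 29, below it. Of all genes called by this test, those whose ratios did not overlap between the 2 groups made up 36.9% at 24 h and 59.1% at 72 h. Of the members, which were picked here by their call, they were 5 of 9 at 24 h (BCLAF1, LUC7L, LUC7L2, LUC7L3 and SRRM2) and 2 of 3 at 72 h (LUC7L2 and SRSF11). The number of members called at 24 h changed with single libraries left out. Without cisplatin replicate 2 the logistic regression called 2 members, and without DMSO replicate 1 or DMSO replicate 2 it called 4 each. BCLAF1 alone kept its call at 24 h with each library left out, and LUC7L2 lost it without 5 of the 6 libraries. At 72 h the regression called 5 without cisplatin replicate 1. The shares of all genes called in these fits with 1 library left out are not given here, and whether they moved alike was not tested. LUC7L2 and SRSF11 kept their calls at 72 h with each library left out, and ACIN1 lost it without DMSO replicate 1 or cisplatin replicate 2. With a dispersion per gene estimated from the replicates (quasi-binomial model), it called 0 of 29 members at both times, beside 0% and 0% of all genes.

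**Figure D2:**
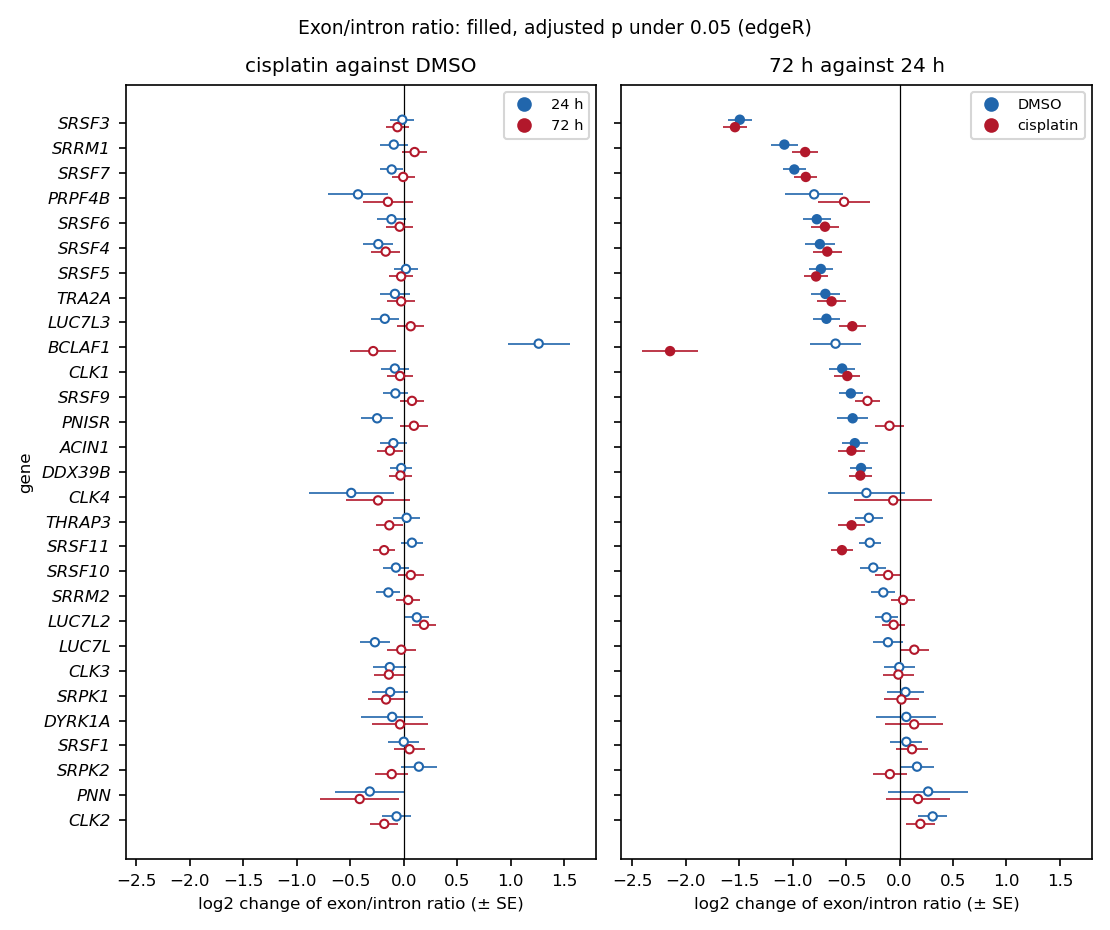
Log2 change of the exon/intron ratio with its standard error for the 29 members, cisplatin against DMSO at 24 and 72 h (left) and 72 h against 24 h in DMSO and in cisplatin (right). Filled markers passed an adjusted p of 0.05 in edgeR. No marker is filled on the left, and 13 and 14 are filled on the right, all below 0.

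Libraries at 24 and 72 h stood apart for many of these genes. Time in culture and anything else that differed between the harvests at 24 and 72 h cannot be told apart. The change from 24 to 72 h was tested within each treatment, and, as given above, its difference between treatments (the interaction) passed for no member. From 24 to 72 h the ratio fell for 13 of 29 members in DMSO, beside 3.37% of all genes, and rose for 0, beside 8.09%. In cisplatin it fell for 14 of 29, beside 3.56%, and rose for 0, beside 8.36%. The median log2 change was -0.36 in DMSO and -0.37 in cisplatin for members, against 0.10 and 0.11 for all genes. The logistic regression gave 20 of 29 members with a lower ratio in DMSO (beside 11.1%) and 16 in cisplatin (beside 11.6%), and 1 with a higher ratio in each, CLK2 (beside 22.5% and 29%). As a quasi-binomial model, which adds the spread between replicates, it gave 4 members with a lower ratio in DMSO (beside 0.236%) and 5 in cisplatin (beside 0.295%). It gave 0 with a higher one in either (beside 0.421% and 0.693%), so the CLK2 calls were lost.

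A ratio can fall through fewer exon counts, more intron counts or both, and both were called here. Each kind of count was scaled by its own TMM factors, so this split depends on the scaling. With intron counts scaled by the exon library sizes, some rises of intron counts lost their calls. They were CLK3 in both treatments, SRSF6 in cisplatin, and SRSF11 and TRA2A in DMSO. The other rises of intron counts kept their calls. Exon counts fell for 19 of 30 members in DMSO (beside 32.5% of all genes) and for 21 in cisplatin (beside 31.5%). They rose for 6 (beside 32.6%) and 3 (beside 32%), all of them kinases except PNISR in DMSO. The median change of exon counts was -0.45 and -0.40 for members, against 0.01 and 0.02. Intron counts rose for 11 of 32 members in DMSO (beside 17.2%) and 10 in cisplatin (beside 16.4%), and fell for 8 (beside 16.2%) and 6 (beside 15.4%). Exon counts fell while intron counts rose in 5 of 29 members in DMSO, namely SRSF3, SRSF6, TRA2A, SRRM1 and LUC7L3. In cisplatin it was 7, namely SRSF3, SRSF5, SRSF6, SRSF11, TRA2A, SRRM1 and BCLAF1. Over the genes tested for both, this pair of opposite calls was seen in 0.765% in DMSO and 0.808% in cisplatin.

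**Figure D3:**
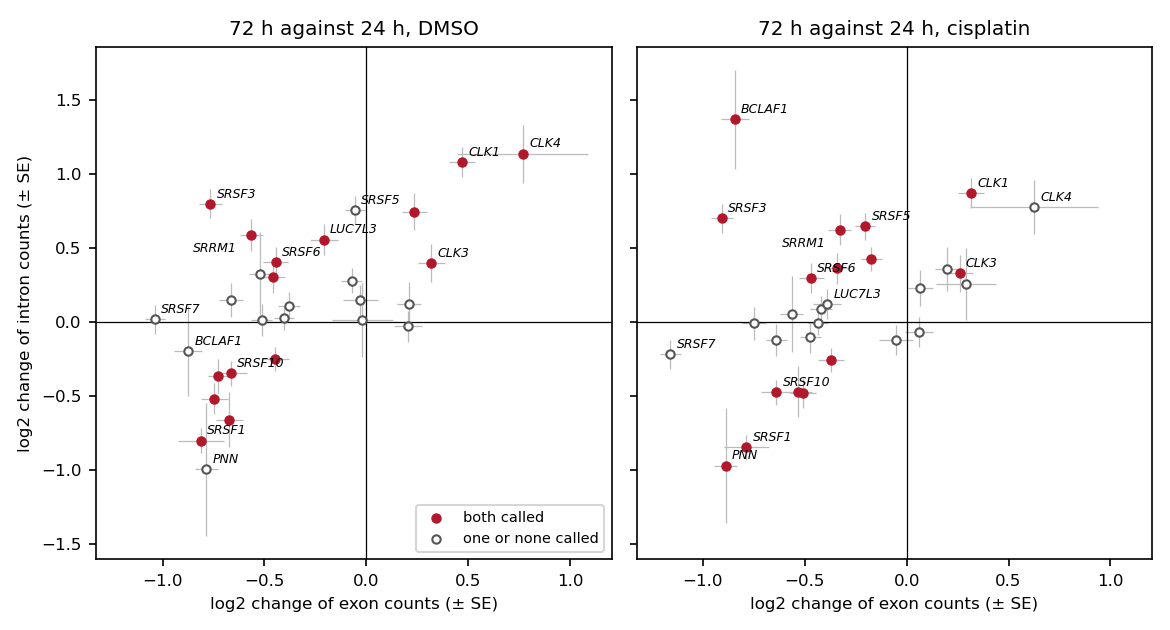
Log2 change of intron counts against log2 change of exon counts from 24 to 72 h, with standard errors, for the 29 members tested for both, in DMSO (left) and cisplatin (right). Filled points passed the edgeR test for both kinds of count. SRSF3, SRSF6 and SRRM1 lie at the upper left in both panels, and SRSF1 and SRSF10 at the lower left.

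Among the SR proteins, exon counts fell over time for 7 of 10 in DMSO and 9 of 10 in cisplatin, beside 32.5% and 31.5% of all genes. The ratio fell for 6 of 9 in each, beside 3.37% and 3.56%. SRSF3 (chr6:36594353-36605600, + strand, ENSG00000112081), the smallest SR protein, which also acts in mRNA export and 3′ end formation, had the strongest fall of the ratio in DMSO. Its exon/intron ratios were 23.9, 21.6 and 25.6 in DMSO and 24.0, 22.8 and 23.3 in cisplatin at 24 h, and 9.26, 8.20 and 7.76 in DMSO and 8.59, 8.01 and 7.52 in cisplatin at 72 h. Every library at 24 h was above 21 and every library at 72 h below 10, with no overlap and with both treatments side by side. The log2 change was -1.49 (SE 0.11, edgeR adjusted p = 5.54e-10) in DMSO and -1.54 (SE 0.11, edgeR adjusted p = 4.40e-10) in cisplatin. Exon CPM of SRSF3, scaled by TMM to the exon counts of each library, were 462, 484 and 521 in DMSO and 530.3, 465 and 512 in cisplatin at 24 h, and 287, 300.3 and 275 in DMSO and 271, 267 and 266 in cisplatin at 72 h. Intron CPM were 267, 327 and 267 in DMSO and 289, 251 and 312 in cisplatin at 24 h, and 459, 533 and 508 in DMSO and 443, 459 and 473 in cisplatin at 72 h. Thus the exon CPM were lower and the intron CPM higher in all 6 libraries at 72 h than in any at 24 h. The exon changes were -0.77 and -0.91 and the intron changes 0.80 and 0.70 in DMSO and cisplatin.

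SRSF7 (chr2:38743599-38751494, - strand, ENSG00000115875), the SR protein with a zinc knuckle, fell in exon counts, while its intron counts did not pass. Its exon CPM were 312, 329.8 and 337 in DMSO and 326, 321 and 331 in cisplatin at 24 h, and 156, 166 and 155 in DMSO and 142, 150.1 and 146 in cisplatin at 72 h. Its intron CPM were 376, 479 and 420.2 in DMSO and 404, 428 and 479 in cisplatin at 24 h, and 456, 450.4 and 387 in DMSO and 365, 379 and 378 in cisplatin at 72 h. Exon CPM did not overlap between the times, while intron CPM did in DMSO. The change of exon counts was -1.04 (SE 0.05, edgeR adjusted p = 1.31e-14) in DMSO and -1.16 (SE 0.05, edgeR adjusted p = 2.30e-15) in cisplatin, the largest fall of exon counts among the members in both treatments. Its ratios were 11.5, 10.0 and 10.5 in DMSO and 10.6, 9.27 and 9.80 in cisplatin at 24 h, and 5.06, 5.36 and 5.75 in DMSO and 5.48, 5.46 and 5.16 in cisplatin at 72 h. All were lower at 72 h than at 24 h, with changes of -0.98 (SE 0.11, edgeR adjusted p = 4.59e-07) in DMSO and -0.88 (SE 0.11, edgeR adjusted p = 2.44e-06) in cisplatin.

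SRSF5 (chr14:69726900-69772005, + strand, ENSG00000100650) took the other route. Its intron CPM were 343, 328 and 346 in DMSO and 325, 329 and 345 in cisplatin at 24 h, and 563, 612 and 544 in DMSO and 466, 573 and 521 in cisplatin at 72 h. SRSF5 exon CPM were 169, 168 and 177 in DMSO and 182, 182 and 176 in cisplatin at 24 h, and 160.3, 169.9 and 165 in DMSO and 153, 161 and 155 in cisplatin at 72 h. Intron CPM were higher in all 6 libraries at 72 h than in any at 24 h, with changes of 0.76 (SE 0.093, edgeR adjusted p = 2.28e-09) in DMSO and 0.65 (SE 0.092, edgeR adjusted p = 1.09e-07) in cisplatin. Exon counts changed by -0.06 (SE 0.049, edgeR adjusted p = 0.332) in DMSO, which does not pass, and fell by 0.20 on the log2 scale in cisplatin (edgeR adjusted p = 0.000859). The ratios of SRSF5 were 6.80, 7.48 and 6.75 in DMSO and 7.33, 6.81 and 7.22 in cisplatin at 24 h, and 4.22, 4.04 and 4.36 in DMSO and 4.62, 3.87 and 3.96 in cisplatin at 72 h. They did not overlap between the times (log2 change -0.74 and -0.78).

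SRSF4 and SRSF6 share with SRSF5 a pair of RNA recognition motifs and long arginine-serine stretches. SRSF6 had ratios of 3.31, 3.75 and 3.93 in DMSO and 3.44, 3.36 and 3.30 in cisplatin at 24 h, and 1.97, 2.36 and 2.08 in DMSO and 2.28, 2.1 and 1.86 in cisplatin at 72 h. The times did not overlap, and the ratio changed by -0.77 (SE 0.13, edgeR adjusted p = 0.000252) in DMSO and -0.70 (SE 0.13, edgeR adjusted p = 0.000773) in cisplatin. Its exon counts fell (-0.44 and -0.47) and its intron counts rose (0.40 and 0.30). The intron call in cisplatin was lost without cisplatin replicate 2 at 24 h or cisplatin replicate 3 at 72 h (edgeR adjusted p up to 0.106), and when intron counts were scaled by the exon library sizes. SRSF4 had ratios of 23.4, 22.8 and 20.3 in DMSO and 17.6, 17.5 and 22.3 in cisplatin at 24 h, and 15.8, 12 and 12.4 in DMSO and 12.3, 12.3 and 10.7 in cisplatin at 72 h. They were lower at 72 h without overlap in both treatments, with changes of -0.74 (SE 0.14, edgeR adjusted p = 0.000669) in DMSO and -0.68 (SE 0.13, edgeR adjusted p = 0.00125) in cisplatin, and only its exon counts passed (-0.66 and -0.75).

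SRSF9, a close relative of SRSF1, had ratios of 32.9, 30.2 and 29.7 in DMSO and 29.9, 28.1 and 30.3 in cisplatin at 24 h, and 22.5, 20.7 and 24.5 in DMSO and 23.2, 25.2 and 23 in cisplatin at 72 h. The times did not overlap in either treatment, with changes of -0.46 (SE 0.12, edgeR adjusted p = 0.00973) in DMSO and -0.30 (SE 0.11, edgeR adjusted p = 0.0801) in cisplatin. The call in DMSO was lost without DMSO replicate 1 at 24 h or DMSO replicate 2 at 72 h (edgeR adjusted p up to 0.062). Its exon counts fell in both treatments (-0.51 and -0.47), and its intron counts changed by 0.01 and -0.10, which did not pass. SRSF11, which bridges SR proteins and U2 snRNP factors, had ratios of 3.29, 3.35 and 3.07 in DMSO and 3.33, 3.30 and 3.63 in cisplatin at 24 h, and 2.69, 2.70 and 2.61 in DMSO and 2.33, 2.47 and 2.25 in cisplatin at 72 h. All libraries at 72 h were below those at 24 h, and the change was -0.28 (SE 0.10, edgeR adjusted p = 0.078) in DMSO and -0.54 (SE 0.10, edgeR adjusted p = 0.000849) in cisplatin. With DESeq2 the ratio also passed in DMSO. Intron counts of SRSF11 rose by 0.28 and 0.43, a call that was lost in DMSO when intron counts were scaled by the exon library sizes.

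SRSF1 and SRSF10 fell in both kinds of count, and their ratios did not pass. The exon CPM of SRSF1 were 17.0, 14.2 and 15.3 in DMSO and 14.6, 16.2 and 15.8 in cisplatin at 24 h, and 9.99, 7.24 and 9.23 in DMSO and 8.74, 8.50 and 9.99 in cisplatin at 72 h. SRSF1 intron CPM were 1442, 1578 and 1516 in DMSO and 1536, 1246 and 1579.7 in cisplatin at 24 h, and 885, 908 and 808 in DMSO and 842, 766 and 814 in cisplatin at 72 h. Both were lower in every library at 72 h than in any at 24 h, with changes of -0.81 and -0.79 for exon counts and -0.80 and -0.85 for intron counts in DMSO and cisplatin. Ratios of SRSF1 were 0.163, 0.132 and 0.133 in DMSO and 0.125, 0.161 and 0.141 in cisplatin at 24 h, and 0.167, 0.116 and 0.164 in DMSO and 0.146, 0.153 and 0.164 in cisplatin at 72 h. They overlapped between the times, with changes of 0.06 (SE 0.15, edgeR adjusted p = 0.84) in DMSO and 0.12 (SE 0.15, edgeR adjusted p = 0.66) in cisplatin. SRSF10 had exon CPM of 26.5, 27.6 and 25.6 in DMSO and 25.4, 25.8 and 27.1 in cisplatin at 24 h, and 15.4, 17.6 and 17.2 in DMSO and 16.4, 16.2 and 17.7 in cisplatin at 72 h. Its intron CPM were 1330.0, 1323 and 1338 in DMSO and 1395, 1132 and 1415 in cisplatin at 24 h, and 1029.8, 1076 and 1029 in DMSO and 958, 909 and 962 in cisplatin at 72 h. These too fell without overlap between the times, with changes of -0.67 and -0.64 for exon counts and -0.35 and -0.48 for intron counts. The ratio changes of SRSF10 were -0.25 and -0.11, neither of which passed. Intron counts of SRSF2, with changes of -0.05 (SE 0.10, edgeR adjusted p = 0.725) in DMSO and -0.19 (SE 0.10, edgeR adjusted p = 0.133) in cisplatin, did not pass. Nor did exon counts of SRSF8 (0.06 and -0.02).

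**Figure D4:**
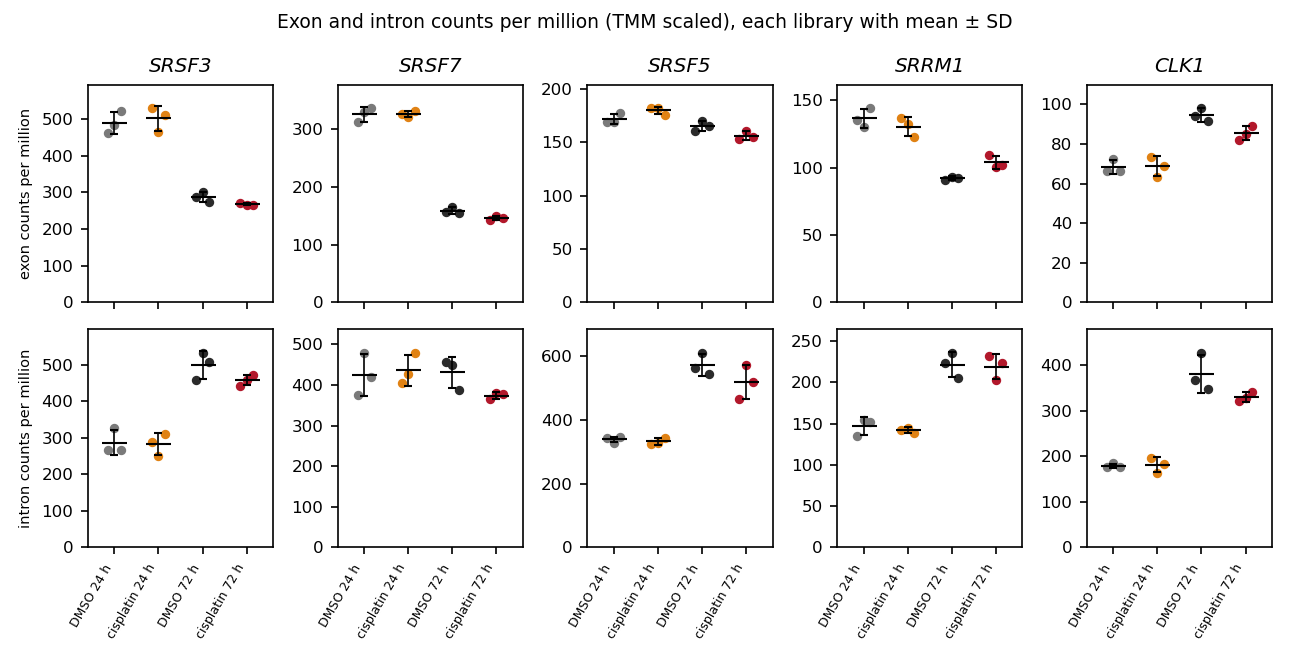
Exon CPM (top) and intron CPM (bottom), scaled by TMM, for SRSF3, SRSF7, SRSF5, SRRM1 and CLK1. Points are single libraries, bars the mean ± SD of 3, and axes start at 0. SRSF3 and SRRM1 have lower exon and higher intron CPM at 72 h, SRSF7 lower exon CPM, SRSF5 higher intron CPM, and CLK1 more of both.

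TRA2A and TRA2B, SR-like proteins that bind purine-rich enhancers, can be set side by side only in intron counts, since TRA2B had no exon entry. TRA2B had intron counts of 584, 562 and 406 in DMSO and 482, 811 and 366 in cisplatin at 24 h, and 426, 452 and 629 in DMSO and 870, 1101 and 589 in cisplatin at 72 h. As intron CPM these were 309, 286 and 288 in DMSO and 276, 294 and 303 in cisplatin at 24 h, and 250.3, 249 and 216 in DMSO and 260.5, 237 and 264 in cisplatin at 72 h. They were lower at 72 h without overlap in both treatments, but the change passed only in DMSO, at -0.31 (SE 0.10, edgeR adjusted p = 0.0122) against -0.20 (SE 0.10, edgeR adjusted p = 0.116) in cisplatin. The call was lost without DMSO replicate 1 at 24 h or DMSO replicate 3 at 72 h (edgeR adjusted p up to 0.107). TRA2A went the other way in intron counts, which rose by 0.30 and 0.36, while its exon counts fell (-0.46 and -0.34). Ratios of TRA2A were 5.92, 6.30 and 4.52 in DMSO and 5.03, 5.18 and 5.50 in cisplatin at 24 h, and 3.27, 3.38 and 3.61 in DMSO and 3.10, 3.68 and 3.32 in cisplatin at 72 h. These were lower at 72 h without overlap, with changes of -0.69 (SE 0.14, edgeR adjusted p = 0.00101) in DMSO and -0.64 (SE 0.13, edgeR adjusted p = 0.00212) in cisplatin. The rise of its intron counts in DMSO did not pass without DMSO replicate 1 or 2 at 24 h or DMSO replicate 3 at 72 h (edgeR adjusted p up to 0.142), nor with the exon library sizes.

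Of the speckle scaffold proteins, SRRM1 fell in exon counts and rose in intron counts, SRRM2 fell in both, and SON could be read only in introns. SRRM1 (chr1:24631716-24673281, + strand, ENSG00000133226), a splicing coactivator that joins SR proteins on the pre-mRNA, had ratios of 13.9, 12.3 and 12.5 in DMSO and 12.6, 11.2 and 12.6 in cisplatin at 24 h, and 6.04, 5.76 and 6.49 in DMSO and 6.65, 6.87 and 6.11 in cisplatin at 72 h. The times were apart in both treatments, with changes of -1.08 (SE 0.12, edgeR adjusted p = 1.03e-06) in DMSO and -0.88 (SE 0.12, edgeR adjusted p = 1.86e-05) in cisplatin. SRRM1 had exon CPM of 135, 130.2 and 144 in DMSO and 137, 132 and 122.5 in cisplatin at 24 h, and 91.0, 93.3 and 92.6 in DMSO and 109, 101 and 102 in cisplatin at 72 h. Its intron CPM were 135, 155 and 152 in DMSO and 142, 145 and 138 in cisplatin at 24 h, and 223, 236 and 205 in DMSO and 231, 202 and 223 in cisplatin at 72 h. Exon counts thus fell by 0.56 and 0.33 on the log2 scale, and intron counts rose by 0.59 and 0.62. Neither kind of CPM overlapped between the times. SRRM2 had exon CPM of 525, 467 and 493 in DMSO and 468, 549 and 459.7 in cisplatin at 24 h, and 284, 287 and 314 in DMSO and 349, 327 and 364 in cisplatin at 72 h. SRRM2 intron CPM were 306, 294 and 271 in DMSO and 278, 344 and 287 in cisplatin at 24 h, and 223, 188 and 199 in DMSO and 205, 210.5 and 239.8 in cisplatin at 72 h. Both were lower at 72 h without overlap, with changes of -0.75 and -0.51 for exon counts and -0.52 and -0.48 for intron counts, and the ratio changes of -0.15 and 0.03 did not pass. SON, which holds speckles together, had intron counts of 518, 494 and 395 in DMSO and 438, 619 and 272 in cisplatin at 24 h, and 352, 299 and 563 in DMSO and 738, 903 and 456 in cisplatin at 72 h. As intron CPM, SON had 274, 252 and 279.9 in DMSO and 251, 224 and 225 in cisplatin at 24 h, and 207, 165 and 193 in DMSO and 221, 194 and 204 in cisplatin at 72 h. All libraries at 72 h were below those at 24 h of the same treatment. The change passed in DMSO only, at -0.51 (SE 0.10, edgeR adjusted p = 9.72e-05) against -0.18 (SE 0.10, edgeR adjusted p = 0.191) in cisplatin.

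Among the kinases, exon counts rose for 5 of 8 and fell for 2 in DMSO, beside 32.6% and 32.5% of all genes. In cisplatin they rose for 3 and fell for 2, near the shares of all genes (32% and 31.5%). CLK1 (chr2:200853009-200864691, - strand, ENSG00000013441), a nuclear kinase of SR proteins, had exon CPM of 66.3, 72.2 and 66.3 in DMSO and 73.7, 63.6 and 68.9 in cisplatin at 24 h, and 94.1, 98.2 and 91.6 in DMSO and 82.1, 85.0 and 89.2 in cisplatin at 72 h. Intron CPM were 176, 184 and 176 in DMSO and 197, 164 and 182 in cisplatin at 24 h, and 367, 427 and 346 in DMSO and 322, 327 and 341 in cisplatin at 72 h. Both were higher in every library at 72 h than in any at 24 h, the intron counts more so, with exon changes of 0.47 and 0.32 and intron changes of 1.08 and 0.87. Its ratios were 5.19, 5.71 and 4.94 in DMSO and 4.90, 4.78 and 5.36 in cisplatin at 24 h, and 3.80, 3.35 and 3.80 in DMSO and 3.59, 3.58 and 3.5 in cisplatin at 72 h. They were lower at 72 h, with changes of -0.54 (SE 0.12, edgeR adjusted p = 0.0048) in DMSO and -0.49 (SE 0.12, edgeR adjusted p = 0.00853) in cisplatin. CLK3 had exon CPM of 40.2, 39.3 and 38.6 in DMSO and 35.9, 41.3 and 37.4 in cisplatin at 24 h, and 50.6, 47.4 and 49.4 in DMSO and 44.9, 46.1 and 46.5 in cisplatin at 72 h. They were higher at 72 h without overlap (0.32 and 0.26). Intron CPM of CLK3 were 119.7, 121 and 101 in DMSO and 98.4, 136 and 107 in cisplatin at 24 h, and 183, 135 and 136 in DMSO and 149, 148 and 138 in cisplatin at 72 h. These were also higher (0.40 and 0.33). The intron call was lost in DMSO without DMSO replicate 3 at 24 h or DMSO replicate 1 at 72 h (edgeR adjusted p up to 0.17). It was lost in cisplatin without cisplatin replicate 1 or 3 at 24 h or cisplatin replicate 1 or 2 at 72 h (edgeR adjusted p up to 0.212) and with DESeq2, and in both treatments with the exon library sizes. The ratio of CLK3 did not pass in either treatment.

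CLK4 had intron CPM of 23.8, 21.4 and 34 in DMSO and 33.8, 35.1 and 26.5 in cisplatin at 24 h, and 53.5, 58.0 and 59.4 in DMSO and 68.0, 52.9 and 44.8 in cisplatin at 72 h. They were higher at 72 h without overlap, with changes of 1.14 (SE 0.20, edgeR adjusted p = 5.20e-06) in DMSO and 0.78 (SE 0.18, edgeR adjusted p = 0.000641) in cisplatin. Its exon counts were 20, 13 and 13 in DMSO and 14, 22 and 9 in cisplatin at 24 h, and 32, 26 and 42 in DMSO and 47, 53 and 30 in cisplatin at 72 h. Relative to library size they were higher at 72 h without overlap. Their changes were 0.77 (SE 0.32, edgeR adjusted p = 0.0393) in DMSO and 0.62 (SE 0.32, edgeR adjusted p = 0.0878) in cisplatin, of which the one in DMSO passed. That call was lost without DMSO replicate 2 or 3 at 24 h, DMSO replicate 1, 2 or 3 at 72 h or cisplatin replicate 1 at 72 h (edgeR adjusted p up to 0.193), with a minimal filter, with only the 6 libraries compared and with DESeq2. CLK2 had exon CPM of 40.9, 40.1 and 41.1 in DMSO and 38.6, 46.3 and 44.3 in cisplatin at 24 h, and 45.6, 49.7 and 45.2 in DMSO and 45.2, 46.1 and 43.5 in cisplatin at 72 h. The groups did not overlap in DMSO and did in cisplatin, with changes of 0.20 (SE 0.07, edgeR adjusted p = 0.0133) in DMSO and 0.06 (SE 0.069, edgeR adjusted p = 0.459) in cisplatin. CLK2's call in DMSO was lost without DMSO replicate 2 at 72 h (edgeR adjusted p up to 0.0756). Ratios of CLK2, the 1 member with a higher ratio over time by logistic regression, were 2.49, 2.75 and 2.40 in DMSO and 2.42, 2.27 and 2.64 in cisplatin at 24 h, and 3.52, 2.92 and 3.09 in DMSO and 2.90, 2.90 and 2.55 in cisplatin at 72 h. With edgeR their changes did not pass: 0.31 in DMSO and 0.20 in cisplatin.

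SRPK1 and SRPK2 phosphorylate SR proteins in the cytoplasm ahead of nuclear import, and they moved in opposite directions. SRPK1 had exon CPM of 62.9, 73.2 and 66.2 in DMSO and 66.6, 64.8 and 63.6 in cisplatin at 24 h, and 41.1, 41.5 and 44.3 in DMSO and 47.8, 44.6 and 42.2 in cisplatin at 72 h. SRPK2 had 83.7, 81.9 and 84.1 in DMSO and 85.4, 82.7 and 79.8 in cisplatin at 24 h, and 96.6, 96.8 and 94.9 in DMSO and 102, 94.8 and 87.8 in cisplatin at 72 h. The times did not overlap for SRPK1, which changed by -0.67 (SE 0.068, edgeR adjusted p = 6.06e-09) in DMSO and -0.53 (SE 0.066, edgeR adjusted p = 2.26e-07) in cisplatin. Nor did they overlap for SRPK2, which rose by 0.21 (SE 0.058, edgeR adjusted p = 0.00313) in DMSO and 0.20 (SE 0.058, edgeR adjusted p = 0.00457) in cisplatin. The rise in cisplatin was lost without cisplatin replicate 1 at 72 h (edgeR adjusted p up to 0.0559). Intron CPM of SRPK1 were 54.6, 61.1 and 41.8 in DMSO and 60.6, 49.2 and 47.1 in cisplatin at 24 h, and 37.6, 32.0 and 31.6 in DMSO and 43.4, 38.3 and 30.5 in cisplatin at 72 h. They were lower at 72 h (-0.66 and -0.47), and the call in cisplatin was lost without cisplatin replicate 1 at 24 h or cisplatin replicate 2 or 3 at 72 h (edgeR adjusted p up to 0.178). PRPF4B, a kinase of the spliceosome, had exon CPM of 127, 129 and 131 in DMSO and 136, 121 and 129 in cisplatin at 24 h, and 89.4, 93.7 and 87.0 in DMSO and 86.7, 85.9 and 88.2 in cisplatin at 72 h. The times did not overlap, with changes of -0.52 (SE 0.055, edgeR adjusted p = 1.32e-08) in DMSO and -0.57 (SE 0.055, edgeR adjusted p = 3.64e-09) in cisplatin. With 15 to 94 intron counts per library, its ratio changes of -0.80 and -0.52 did not pass. DYRK1A, a kinase that also acts on splicing factors, passed in no comparison, with changes of exon counts of -0.02 and 0.29.

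Among the SR-related proteins, exon counts fell for 5 of 6 in both treatments, beside 32.5% and 31.5% of all genes. BCLAF1 had exon CPM of 136, 142 and 154 in DMSO and 158, 137 and 136 in cisplatin at 24 h, and 77.0, 76.4 and 82.0 in DMSO and 85.8, 72.9 and 82.3 in cisplatin at 72 h. These were lower at 72 h without overlap, with changes of -0.87 (SE 0.069, edgeR adjusted p = 1.02e-10) in DMSO and -0.84 (SE 0.069, edgeR adjusted p = 1.88e-10) in cisplatin. Ratios of BCLAF1 were 122, 170.0 and 124 in DMSO and 402, 334 and 259.8 in cisplatin at 24 h, and 102, 74.7 and 98 in DMSO and 80.7, 69.8 and 74.4 in cisplatin at 72 h. The 3 cisplatin libraries at 24 h were the highest of the 12, and the change over time was -2.15 (SE 0.26, edgeR adjusted p = 2.06e-06) in cisplatin and -0.60 (SE 0.24, edgeR adjusted p = 0.113) in DMSO, where it did not pass. Intron counts were 9 to 14 in cisplatin at 24 h and 33 to 67 at 72 h, with a change of 1.37 (SE 0.33, edgeR adjusted p = 0.000939). The difference between the treatments in the ratio's change, which is the interaction, was -1.55 (SE 0.36, edgeR adjusted p = 0.512) and did not pass. THRAP3, a relative of BCLAF1, had exon CPM of 254, 255 and 264 in DMSO and 260.0, 256 and 250.4 in cisplatin at 24 h, and 148, 154 and 165 in DMSO and 168, 159.7 and 164 in cisplatin at 72 h. They were lower at 72 h without overlap (-0.73 and -0.64). Its ratios were 17.4, 19.1 and 14.9 in DMSO and 15.8, 17.1 and 20.0 in cisplatin at 24 h, and 13.2, 15.1 and 13.9 in DMSO and 11.6, 13.1 and 13.8 in cisplatin at 72 h. THRAP3 changed in ratio by -0.29 (SE 0.13, edgeR adjusted p = 0.156) in DMSO and -0.45 (SE 0.13, edgeR adjusted p = 0.0185) in cisplatin, and passed in cisplatin. The call was lost without cisplatin replicate 3 at 24 h or cisplatin replicate 1 or 2 at 72 h (edgeR adjusted p up to 0.103). In intron counts THRAP3 passed in DMSO (-0.37), and the call was lost without DMSO replicate 3 at 24 h or DMSO replicate 2 at 72 h (edgeR adjusted p up to 0.0698).

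PNN had exon CPM of 208, 204 and 239.8 in DMSO and 226, 233 and 222 in cisplatin at 24 h, and 126, 127 and 125 in DMSO and 124, 122 and 122 in cisplatin at 72 h. Exon CPM of PNN were lower at 72 h without overlap, with changes of -0.79 (SE 0.056, edgeR adjusted p = 1.60e-11) in DMSO and -0.89 (SE 0.056, edgeR adjusted p = 1.81e-12) in cisplatin. Its intron counts were 12, 13 and 17 in DMSO and 11, 32 and 14 in cisplatin at 24 h, and 4, 10 and 12 in DMSO and 13, 25 and 13 in cisplatin at 72 h. Relative to library size these were lower at 72 h without overlap, with changes of -0.997 (SE 0.45, edgeR adjusted p = 0.0806) in DMSO and -0.97 (SE 0.39, edgeR adjusted p = 0.0492) in cisplatin, of which the one in cisplatin passed. That call was lost with a minimal filter, with the replicate block, with DESeq2, and without DMSO replicate 1 or 2 at 24 h, cisplatin replicate 2 or 3 at 24 h, DMSO replicate 2 or 3 at 72 h or cisplatin replicate 1, 2 or 3 at 72 h (edgeR adjusted p up to 0.236). ACIN1, which forms a complex with RNPS1 and SAP18, had ratios of 4.85, 5.50 and 4.22 in DMSO and 4.90, 3.94 and 4.84 in cisplatin at 24 h, and 4.16, 3.31 and 3.46 in DMSO and 3.54, 3.19 and 3.22 in cisplatin at 72 h. Each ACIN1 ratio at 72 h was below those at 24 h of its treatment, with changes of -0.42 (SE 0.12, edgeR adjusted p = 0.0274) in DMSO and -0.45 (SE 0.12, edgeR adjusted p = 0.016) in cisplatin. Its exon counts fell (-0.38 and -0.42), while intron counts did not pass (0.11 and 0.09). The ratio call was lost in DMSO with DESeq2 and without DMSO replicate 1 or 2 at 24 h or DMSO replicate 2 or 3 at 72 h (edgeR adjusted p up to 0.135). In cisplatin it was lost without cisplatin replicate 1 at 24 h or cisplatin replicate 2 or 3 at 72 h (edgeR adjusted p up to 0.0783). DDX39B, the RNA helicase that helps U2 snRNP bind and links splicing to export, had ratios of 3.86, 4.21 and 3.45 in DMSO and 3.87, 3.37 and 4.12 in cisplatin at 24 h, and 2.97, 3.09 and 2.90 in DMSO and 2.98, 2.96 and 2.82 in cisplatin at 72 h. These were lower at 72 h without overlap, with changes of -0.36 (SE 0.11, edgeR adjusted p = 0.0251) in DMSO and -0.37 (SE 0.10, edgeR adjusted p = 0.0213) in cisplatin, and its exon counts fell (-0.41 and -0.44). The ratio call was lost in DMSO without DMSO replicate 1 or 2 at 24 h or DMSO replicate 1 or 3 at 72 h (edgeR adjusted p up to 0.113). For cisplatin, omitting cisplatin replicate 1 or 3 at 24 h or cisplatin replicate 2 or 3 at 72 h (edgeR adjusted p up to 0.0774) had the same effect.

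PNISR, a speckle protein with arginine-serine stretches, rose over time in DMSO in both kinds of count. Its intron CPM were 83.7, 75.4 and 97.1 in DMSO and 97.3, 108 and 95.1 in cisplatin at 24 h, and 145, 134 and 147 in DMSO and 121, 119.6 and 113 in cisplatin at 72 h. Its exon CPM were 52.2, 51.1 and 55.8 in DMSO and 58.6, 57.4 and 51.4 in cisplatin at 24 h, and 62.2, 60.5 and 64.3 in DMSO and 57.7, 58.8 and 59.0 in cisplatin at 72 h. Intron CPM were higher at 72 h without overlap in both treatments, with changes of 0.75 (SE 0.13, edgeR adjusted p = 3.67e-06) in DMSO and 0.23 (SE 0.12, edgeR adjusted p = 0.151) in cisplatin. Exon CPM of PNISR did not overlap in DMSO, with changes of 0.24 (SE 0.063, edgeR adjusted p = 0.00202) in DMSO and 0.07 (SE 0.062, edgeR adjusted p = 0.364) in cisplatin. Ratios of PNISR were 8.61, 9.89 and 7.55 in DMSO and 7.89, 6.56 and 7.65 in cisplatin at 24 h, and 6.35, 6.57 and 6.27 in DMSO and 6.73, 6.78 and 6.98 in cisplatin at 72 h. The fall in DMSO, -0.44 (SE 0.14, edgeR adjusted p = 0.0455), was lost without DMSO replicate 1 or 2 at 24 h, DMSO replicate 1, 2 or 3 at 72 h or cisplatin replicate 1, 2 or 3 at 72 h (edgeR adjusted p up to 0.192). It was also lost with the replicate block, with a minimal filter and with only the 6 libraries compared.

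The LUC7-like proteins, which work with U1 snRNP at 5′ splice sites, differed from one another. LUC7L3 (chr17:50719565-50756219, + strand, ENSG00000108848) had ratios of 5.51, 6.09 and 5.60 in DMSO and 5.50, 4.43 and 5.44 in cisplatin at 24 h, and 3.52, 3.31 and 3.89 in DMSO and 3.89, 3.67 and 3.65 in cisplatin at 72 h. The times did not overlap for LUC7L3, with changes of -0.68 (SE 0.13, edgeR adjusted p = 0.00072) in DMSO and -0.44 (SE 0.13, edgeR adjusted p = 0.0217) in cisplatin. LUC7L3's call in cisplatin was lost without cisplatin replicate 1 or 3 at 24 h or cisplatin replicate 2 or 3 at 72 h (edgeR adjusted p up to 0.0953). Its intron CPM were 199.7, 199 and 218 in DMSO and 219.7, 222 and 237 in cisplatin at 24 h, and 322, 334 and 253 in DMSO and 244, 247 and 247 in cisplatin at 72 h. They rose in DMSO by 0.56 (SE 0.10, edgeR adjusted p = 2.30e-05), and in cisplatin the change of 0.12 (SE 0.10, edgeR adjusted p = 0.387) did not pass. Exon counts of LUC7L3 fell by 0.21 and 0.39 on the log2 scale in DMSO and cisplatin, the first of which was lost without DMSO replicate 3 at 24 h or DMSO replicate 3 at 72 h (edgeR adjusted p up to 0.0706). LUC7L2 had exon CPM of 52.5, 51.4 and 53.2 in DMSO and 56.2, 49.6 and 55.4 in cisplatin at 24 h, and 38.4, 39.9 and 37.2 in DMSO and 39.7, 41.9 and 42.7 in cisplatin at 72 h. LUC7L2 intron CPM were 1705, 1746 and 1689 in DMSO and 1538, 1380.4 and 1703 in cisplatin at 24 h, and 1440.5, 1481 and 1403 in DMSO and 1367, 1314 and 1176 in cisplatin at 72 h. Both fell, with changes of -0.45 and -0.37 for exon counts and -0.25 and -0.26 for intron counts, and the ratio changes of -0.12 and -0.05 did not pass. The intron call was lost in DMSO without DMSO replicate 3 at 72 h (edgeR adjusted p up to 0.0563). Its cisplatin call was lost without cisplatin replicate 3 at 24 h or cisplatin replicate 3 at 72 h (edgeR adjusted p up to 0.112). LUC7L passed in no edgeR comparison, with exon changes of -0.03 and -0.05 and intron changes of 0.15 and -0.12.

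A further 37 genes of speckles and splicing were listed for comparison, of which 35 were found by symbol and MALAT1 and THOC1 were not. Their exon counts rose for 3 and fell for 21 of 33 in DMSO, beside 32.6% and 32.5% of all genes, and rose for 2 and fell for 22 in cisplatin, beside 32% and 31.5%. Their ratio rose for 0 and fell for 4 of 33 in DMSO, beside 8.09% and 3.37% of all genes, and rose for 2 and fell for 4 in cisplatin, beside 8.36% and 3.56%. Their intron counts rose for 6 and fell for 6 of 34 in DMSO, beside 17.2% and 16.2% of all genes, and rose for 6 and fell for 5 in cisplatin, beside 16.4% and 15.4%. The median log2 changes of this list were -0.21 and -0.29 for exon counts and -0.17 and -0.09 for the ratio in DMSO and cisplatin, against 0.01, 0.02, 0.10 and 0.11 for all genes. SF3B1, a core U2 snRNP protein, had ratio changes of -0.73 (SE 0.15, edgeR adjusted p = 0.00228) in DMSO and -0.71 (SE 0.15, edgeR adjusted p = 0.00276) in cisplatin. DDX39A, the paralog of DDX39B, had ratio changes of -0.59 (SE 0.12, edgeR adjusted p = 0.00147) in DMSO and -0.62 (SE 0.12, edgeR adjusted p = 0.000912) in cisplatin. MAGOH, of the exon junction complex, passed for the ratio in DMSO only (-0.68, SE 0.21, edgeR adjusted p = 0.0374), and the call was lost with the replicate block, with DESeq2 and without DMSO replicate 1, 2 or 3 at 24 h or DMSO replicate 1 or 3 at 72 h (edgeR adjusted p up to 0.161). ZRANB2, a zinc finger splicing factor, had changes of -0.44 (SE 0.11, edgeR adjusted p = 0.0121) in DMSO and -0.50 (SE 0.11, edgeR adjusted p = 0.00399) in cisplatin. The first of these was lost without DMSO replicate 3 at 72 h (edgeR adjusted p up to 0.0523). SAP18, a partner of ACIN1, passed in cisplatin only (-0.60, SE 0.17, edgeR adjusted p = 0.0201), a call lost with DESeq2 and without cisplatin replicate 1 or 2 at 24 h or cisplatin replicate 3 at 72 h (edgeR adjusted p up to 0.0801). The 2 with a higher ratio in cisplatin were CASC3 (0.58, SE 0.17, edgeR adjusted p = 0.0225) and SCAF11 (0.53, SE 0.17, edgeR adjusted p = 0.0369). Neither passed with DESeq2, nor SCAF11 with TMM factors per kind of count. CASC3 was lost without cisplatin replicate 1 at 24 h or cisplatin replicate 1 or 3 at 72 h (edgeR adjusted p up to 0.0992), and SCAF11 without cisplatin replicate 2 or 3 at 24 h or cisplatin replicate 1 or 2 at 72 h (edgeR adjusted p up to 0.135). For cisplatin against DMSO, edgeR called 0 genes of this list in the ratio, exon counts or intron counts at 24 or 72 h. At an unadjusted p under 0.05 it gave 4 and 2 of 33 genes for the ratio, 1 and 4 of 33 for exon counts and 3 and 2 of 34 for intron counts at 24 and 72 h. The shares of all genes were 6.34% and 6.24%, 2.49% and 12.6%, and 5.00% and 6.46% in the same order. DESeq2 called 0 and 0 for the ratio and 0 and 0 for intron counts, beside the shares of all genes given above for DESeq2. For exon counts DESeq2 called 0 at 24 h and, at 72 h, 1 of the 18 with an adjusted p (SAP18, lower in cisplatin), beside 2.26%. The logistic regression called 8 and 4 of 34, all with a lower ratio in cisplatin, beside 10.7% and 9.7% of all genes.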

How the data were processed

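RNA of 12 libraries (4 groups of 3) was sequenced as 100-base read pairs. The authors trimmed reads with Trim Galore 0.6.0, aligned them with HISAT2 2.1.0 to GRCh38 and counted fragments per gene with HTSeq on exons (mode intersection-strict) and introns (mode union) of Ensembl release 98. The deposited values are counts (whole numbers, not normalized), and 0 columns were not used. The members and lists were chosen with earlier results of these data known. Exon counts and intron counts were each fitted with edgeR 4.0.16 (R 4.3.3) after filterByExpr and TMM scaling, and the exon/intron ratio with edgeR on both kinds of count, 1 term per library and an intron-by-group term, for genes that reached 10 counts of each kind in 3 or more libraries. DESeq2 1.42.0 was the alternative tool. The logistic regression of the study (exon against intron counts) was rerun with Python 3.11.15, numpy 2.4.6 and scipy 1.17.1. The Wald test and the filter, at least 1 count of each kind in each of the 6 libraries compared, were set here. Adjusted p-values are Benjamini-Hochberg over all genes tested, 2-sided, with a threshold of 0.05. Alternatives were a minimal filter, other scalings, a replicate block, only the 6 libraries compared, DESeq2, and each library left out in turn. Annotation was GENCODE 44 on GRCh38. Per-library values are given for members that edgeR called in any comparison, for the 2 with the largest ratio change in each cisplatin comparison, for the 3 highest and the 1 lowest intronic share in DMSO at 24 h, for SRSF2, and for members without an exon or intron entry. From the list of other speckle genes, the 4 called genes with the largest ratio change in each treatment are named, and SCAF11 was named after its values were seen. Protein identity between members was planned and not run, because no protein table was at hand.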

Additional observations from a re-analysis of the deposited data

How the results depend on the processing

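The counts of members called by edgeR for time kept within 1.5 times their values under each alternative run: 9 to 14 for the ratio in DMSO and 10 to 14 in cisplatin with 1 library left out, 23 to 25 and 23 to 24 for exon counts, and 16 to 19 and 12 to 16 for intron counts. Every ratio call of edgeR in these fits was lower at 72 h. The shares of all genes are not given here for fits with 1 library left out, the replicate block, the minimal filter or the exon library sizes. Counts of members from those fits therefore do not set the members against other genes. For cisplatin, edgeR called 0 with each library left out. The count for exon counts at 72 h became 1 with the minimal filter and 1 with DESeq2, SRRM2 both times. Why its adjusted p fell below the threshold was not tested. With the replicate block edgeR called 12 and 14 members for the ratio over time in DMSO and cisplatin, 25 and 24 for exon counts and 19 and 15 for intron counts. The deviations of same-numbered libraries from their group means had mean correlations across genes from -0.018 to 0.015 for the ratio and from -0.021 to 0.041 for intron counts. For exon counts they were 0.093 and 0.12 over time in DMSO and cisplatin, and -0.113 and 0.012 for cisplatin at 24 and 72 h. Genes are not independent replicates. Intron counts scaled by the exon library sizes gave 16 members in DMSO (8 higher, 8 lower) and 15 in cisplatin (8 higher, 7 lower). The logistic regression called 0, 0, 4 and 5 members as a quasi-binomial model (cisplatin at 24 h and 72 h, time in DMSO and in cisplatin), whose construction adds the spread between replicates. With 1 library left out it called 2 to 9 and 3 to 5 members for cisplatin at 24 and 72 h, and 19 to 21 and 16 to 18 for time. With the replicate block it called 8, 4, 21 and 17. DDX39B, lower with cisplatin at 24 h by logistic regression, had log2 changes from -0.137 to 0.0396 with 1 library left out, above 0 without cisplatin replicate 2 at 24 h, and the cause was not tested. The median intronic share of the members became 15.3% in DMSO at 24 h and 19.5% in cisplatin at 72 h when pooled over members, which weights genes by their counts, and 17.85% in cisplatin at 72 h with counts thinned to the smallest library. With 1 library left out it ranged from 13.9 to 14.3%, 15.4 to 15.8%, 17.7 to 18.9% and 18.6 to 19.0% in DMSO and cisplatin at 24 h and DMSO and cisplatin at 72 h. Intron counts were low for BCLAF1, PNN and PRPF4B, and exon counts for CLK4, and how far this depth limits their calls was not tested.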
